A study of Mus musculus with 14 samples.

Results

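The immunoglobulin constant region genes encode the part of the antibody heavy or light chain that sets its isotype or light chain class. All rows of the deposited count table named Ighm, Ighd, Igha, Ighg1, Ighg2b, Ighg2c, Ighg3, Igkc, Iglc1 or Iglc2 were taken, which gave 10 members among 46959 gene entries. They were followed through 14 RNA-seq libraries to read the isotype and light chain class of each Eµ-Myc lymphoma line, and the isotypes in lymphomas that grew in mice.

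In Eµ-Myc mice the enhancer of the immunoglobulin heavy chain locus drives a Myc transgene in B-lineage cells, which become malignant. A lymph node lymphoma from 1 wild-type C57BL/6 host treated with L-asparaginase (ASNase, an enzyme that degrades asparagine) gave 1 library. A lymph node lymphoma from a wild-type C57BL/6 host given vehicle (NaCl) gave another. Both hosts had been engrafted with cells of line 506, were treated from day 7 after the injection until disease endpoint, and kept their own immune cells. The other 12 libraries came from untreated lines, each labelled with a different Eµ-MycTg/+ mouse (115, 136, 309, 504, 505, 506, 517, 524, 549, 649, 688 and 801) and each grown for 24 h in medium with added L-asparagine at 0.37 mM. Ages and sexes were not used here. Every line and every treatment had 1 library, so a line is a replicate of the cultured state, and neither lymphoma has a replicate.

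A B cell first makes a mu heavy chain, which pairs with a surrogate light chain (Vpreb1, Igll1) in the pre-B cell and with a kappa or lambda light chain in the immature B cell. Mature naive B cells make mu and delta from one long transcript by alternative splicing. After activation, class switch recombination can rearrange the locus so that a gamma, epsilon or alpha constant gene replaces mu. Each of these downstream genes also has a germline promoter of its own, so a transcript over a constant gene does not by itself show that the locus has switched.

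The heavy chain members lie on the minus strand of mouse chromosome 12 in the order Ighm, Ighd, Ighg3, Ighg1, Ighg2b, Ighg2c, Igha, from chr12:113418558-113422730 (Ighm) to chr12:113254830-113260236 (Igha) on GRCm38. Igkc lies at chr6:70726435-70726966 on the plus strand, and Iglc1 (chr16:19061618-19062071) and Iglc2 (chr16:19198396-19200351) lie on the minus strand of chromosome 16. The gamma genes are recent copies of each other, so the first 60 coding bases of each are shown, with capitals where the 4 gamma genes are not all alike. Igha follows because it was the only member for which both lymphomas lay above every line. All were read 5′ to 3′ from the GENCODE M21 transcripts.
Ighg3 (chr12:113361173-113361232, minus strand): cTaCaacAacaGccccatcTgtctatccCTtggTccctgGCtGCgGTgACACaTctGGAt
Ighg1 (chr12:113330464-113330523, minus strand): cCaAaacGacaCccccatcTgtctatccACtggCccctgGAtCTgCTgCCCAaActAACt
Ighg2b (chr12:113307874-113307933, minus strand): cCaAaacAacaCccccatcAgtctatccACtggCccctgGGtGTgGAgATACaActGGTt
Ighg2c (chr12:113288873-113288932, minus strand): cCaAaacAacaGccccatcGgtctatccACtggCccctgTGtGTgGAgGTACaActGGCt
Igha (chr12:113260177-113260236, minus strand): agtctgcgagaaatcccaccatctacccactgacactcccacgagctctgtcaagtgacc

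The closest gamma pair, Ighg2b and Ighg2c, was identical at 55 of these 60 bases (91.7%), and Ighg1 and Ighg3 at 42 of 60. Over the whole transcripts, stretches of 75 bases (1 read length) that also occur in another constant gene made up 0.768% of Ighg2b, 0.480% of Ighg2c and 0.574% of Ighg3, and none of Ighg1 or Igha. The lambda genes are shown in the same way because their members had very different levels in the lines. Here capitals mark positions where Iglc1, Iglc2 and Iglc3, a further lambda gene of the table that is not a member, are not all alike.
Iglc1 (chr16:19062012-19062071, minus strand): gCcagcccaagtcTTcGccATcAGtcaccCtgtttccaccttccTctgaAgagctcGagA
Iglc2 (chr16:19198793-19198852, minus strand): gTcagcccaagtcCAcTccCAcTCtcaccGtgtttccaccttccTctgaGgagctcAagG
Iglc3 (chr16:19065622-19065681, minus strand): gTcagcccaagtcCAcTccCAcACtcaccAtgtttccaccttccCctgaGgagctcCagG

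Iglc2 and Iglc3 were identical at 56 of 60 bases (93.3%), and each matched Iglc1 at 48. Stretches of 75 bases shared with another constant gene made up 0.931% of Iglc2 and 1.32% of Iglc3, and none of Iglc1. Reads from those stretches could be split between copies or lost in the counting.

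Total counts were 25690935 in the ASNase lymphoma, 27715832 in the vehicle lymphoma and 24597230 to 32614751 in the lines. A count of 0 allows up to 3 counts, which is 0.0896 to 0.124 CPM (counts per 1e6 counts of the TMM-scaled library), and intervals and limits of this kind cover counting error only. The labelled malignant B cells were checked against 8 pan-B markers, whose levels summed to 2674 CPM in the ASNase lymphoma, 3474 CPM in the vehicle lymphoma and 2224 to 3395 CPM in the lines. The lines did not all look unrelated. The variable segments most abundant in line 506, Ighv5-17 (88.2% of its Ighv counts) and Igkv9-120 (93.3% of its Igkv counts), also led in line 688, at 87.0% and 98.2%, and in line 549, at 65.0% and 51.5%. Igkv9-120 also led in line 649, at 54.8%, beside a different heavy segment, Ighv1-80. Line 549 held 25.7% Ighv13-2 as well, the segment that made up 99.8% in line 115. Over 9723 genes that are no immunoglobulin segment, log2 CPM of line 506 had a Pearson r of 0.981 with line 688 and 0.977 with line 549, the highest of 66 pairs of lines (median 0.859), against 0.970 between the lymphomas. The labels give these lines as separate mice, so results over the lines were also computed without lines 549 and 688.

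Mu was the leading heavy chain gene in every line. Ighm, the mu heavy chain gene, had the highest level per length of all heavy chain members in 12 of 12 lines and in both lymphomas. It stood at 3171 CPM in the ASNase lymphoma and 3504 CPM in the vehicle lymphoma, and in the lines the lowest value was 772 CPM (line 504), the median 2614 and the highest 3744 (line 505). The lymphomas lay inside the range of the lines, above the median, and line 504 lay far below the rest. In CPM per kb of gene length, Ighm made up 97.6% of the summed heavy chain level in the ASNase lymphoma, 93.7% in the vehicle lymphoma and 96.3% (line 309) to 99.7% (line 506) in the lines. Over the lines its level averaged 2629 ± 794 CPM (SD, n = 12), and 2677 ± 856 CPM without lines 549 and 688 (SD, n = 10).

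Ighd, the delta heavy chain gene spliced from the same primary transcript as mu, was the second heavy chain gene in every line and in both lymphomas, at a small part of the mu level. It stood at 75.9 CPM in the ASNase lymphoma and 199.5 CPM in the vehicle lymphoma, and in the lines the lowest value was 8.21 CPM (line 506), the median 15.0 and the highest 134 (line 309), followed by 64.6 in line 524. The vehicle lymphoma was above every line, and the ASNase lymphoma was above all lines but line 309. Line 506, from which both lymphomas grew, was the lowest of the 14 libraries. Per length, the mu level was 42.1 times the delta level in the ASNase lymphoma and 17.7 times in the vehicle lymphoma, against 300.7 times in line 506. In the other lines this ratio reached down to 26.3 (line 309), 31.8 (line 504) and 56.5 (line 524).

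**Figure D1:**
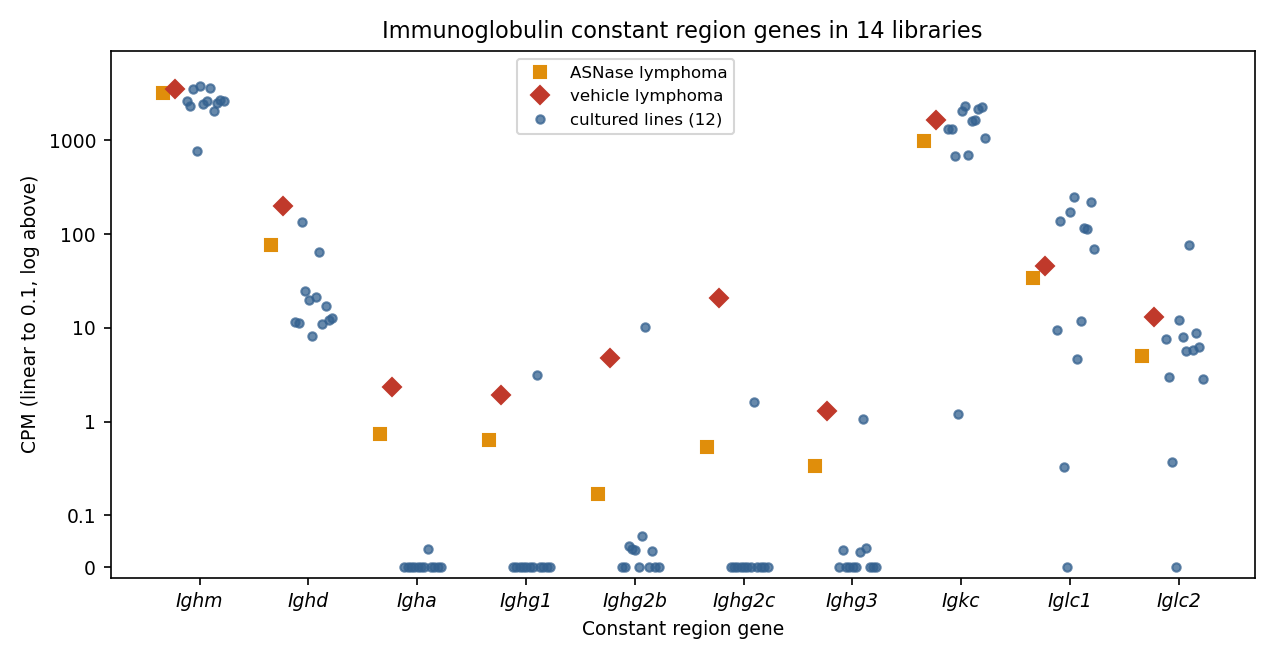
Levels of the 10 constant region genes in CPM (y axis, linear to 0.1 and logarithmic above) by gene (x axis). Squares are the ASNase lymphoma, diamonds the vehicle lymphoma and circles the 12 lines; Igha is the gene for which both lymphomas lie above every line, and the single line with gamma counts above 1 CPM is line 524.

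The light chain members split the lines into 11 with a kappa class and 1, line 504, with no light chain class. A class was given to the gene with the highest level per length where it reached 10 CPM. No line had a lambda class. Igkc, the kappa constant gene, stood at 988 CPM in the ASNase lymphoma and 1646 CPM in the vehicle lymphoma, and in the lines the lowest value was 1.21 CPM (line 504), the median 1477 and the highest 2322 (line 506). Apart from line 504, with 35 Igkc counts, the lines lay between 672 CPM (line 309) and that maximum, and both lymphomas lay within this range. With the class limit at 1 CPM in place of 10, line 504 would be called kappa.

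Iglc1, the first of the lambda constant genes, stood at 33.6 CPM in the ASNase lymphoma and 45.6 CPM in the vehicle lymphoma, and ran from 0 (line 504) through a median of 90.7 to 249.5 CPM (line 506) in the lines. Lines 309, 517, 115 and 524 were low, at 0.331, 4.66, 9.51 and 11.8 CPM, and the other 7 with a count lay at 68.4 CPM or above. Iglc2 stood at 5.04 CPM in the ASNase lymphoma and 13.0 CPM in the vehicle lymphoma, and ran from 0 (line 504) through a median of 6.03 to 77.1 CPM (line 524) in the lines. The line with the most Iglc2 was thus among the lower ones for Iglc1. Iglc3, outside the member list, was also highest in line 524, at 135 CPM, and was 47.6 CPM in the ASNase and 81.7 CPM in the vehicle lymphoma.

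Per length, kappa made up 95.8% of the summed level of Igkc, Iglc1 and Iglc2 in the ASNase lymphoma and 96.2% in the vehicle lymphoma. In the 11 kappa lines it made up 88.6% (line 506) to 99.9% (line 309). Lambda constant transcripts were thus present beside kappa in these lines. Lambda V counts were below lambda constant counts in both lymphomas and in every kappa line but line 309, by widely different factors. Counts of the 3 Iglv segments were 0.0194 of the lambda constant counts in the ASNase lymphoma and 0.0360 in the vehicle lymphoma. In the 11 kappa lines this ratio had a median of 0.271. It ran from 0.00538 (line 688) and 0.0563 (line 506) to 0.741 (line 505), and was 1.2 in line 309 on only 60 Iglv counts. For the heavy chain, Ighv counts were 0.137 of the heavy chain constant counts in the ASNase lymphoma, 0.108 in the vehicle lymphoma and 0.104 to 0.173 in these lines. For kappa, Igkv counts were 0.560 of the Igkc counts in the ASNase lymphoma and 0.463 in the vehicle lymphoma, against 0.562 to 0.866 in the 11 kappa lines.

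Light chain transcripts outnumbered heavy chain transcripts per length in most libraries. The summed light chain level was 1.13 times the summed heavy chain level in the ASNase lymphoma and 1.62 times in the vehicle lymphoma. In the lines it was 3.78 times in line 506, the highest, and below 1 in line 517 (0.947), line 309 (0.655) and line 504 (0.00538). Taken over the order of levels in all 14 libraries, the members differed between neighbours in that order by more than counting error except in 3 of 13 neighbouring pairs for Ighm, 5 for Ighd, 3 for Igkc, 1 for Iglc1 and 7 for Iglc2. One library per line gives no spread within a line, so that statement covers counting error alone.

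**Figure D2:**
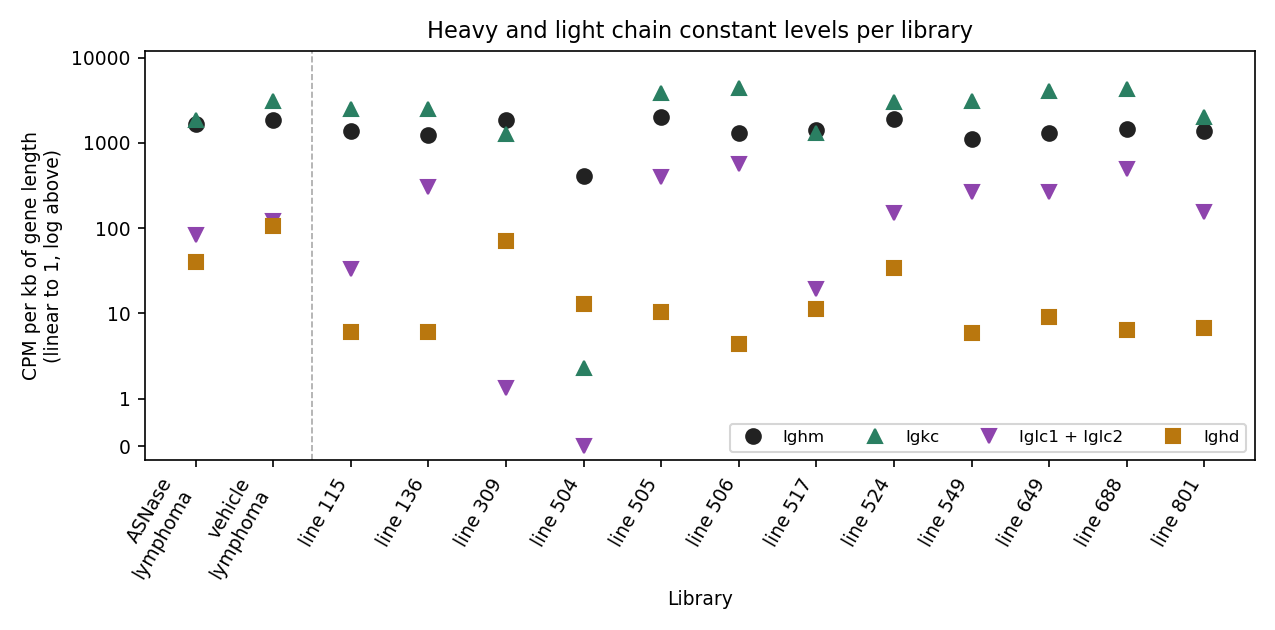
Levels of Ighm, Ighd, Igkc and the sum of Iglc1 and Iglc2 in CPM per kb of gene length (y axis, linear to 1 and logarithmic above) in each library (x axis), with the lymphomas left of the dashed line. Ighm and Igkc are above 1000 in every library but line 504, where Igkc is at 2.27 and lambda at 0.

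Line 504 also stood apart in genes of early B cell development. It had the highest levels among all libraries of Vpreb1 (298 CPM) and Igll1 (425 CPM), the surrogate light chain genes, and of Dntt (1006 CPM), which adds bases at heavy chain joints. The next highest lines were at 17.1 CPM for Vpreb1 and 61.1 CPM for Igll1 (both line 801) and 1.37 CPM for Dntt (line 549). Rag2, a subunit of the V(D)J recombinase, was also highest in line 504, at 33.4 CPM, against 27.4 CPM in line 801 and 25.2 CPM in line 309. Rag1, the other subunit, was at 122 CPM in line 504, below line 309 at 136 CPM and line 801 at 128 CPM. The heavy chain V counts of line 504 were spread over 22 segments with at least 10 counts, the leading one, Ighv3-2, holding 21.6%, whereas the leading segment held 65.0% to 99.8% in the other lines. Its 35 Igkc counts came with 22 Igkv counts. The variation of the light chain members over the lines was among the widest of all 17450 tested genes, with an SD of log2 CPM above that of 99.65% of them for Iglc1, 98.25% for Igkc and 96.54% for Iglc2, against 60.73% for Ighm. Line 504 carries much of this. Without it the shares were 98.6% for Iglc1, 92.6% for Iglc2, 66.4% for Igkc and 27.9% for Ighm.

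The gamma and alpha members, the genes used after class switching, were close to absent from the lines with 1 exception. They are called switched members here, but germline transcripts were not separated, so their counts do not show that a locus has switched. Summed over Igha, Ighg1, Ighg2b, Ighg2c and Ighg3, 4 lines had 0 counts, 7 had 1 to 3, and line 524 had 451. In line 524, 287 of these counts were Ighg2b (63.6%, Wilson 95% interval 59.1 to 67.9%), 88 were Ighg1, 45 Ighg2c, 30 Ighg3 and 1 Igha. Per length the switched members still made up only 0.371% of its heavy chain level, and its V counts were 99.8% Ighv5-12. Line 524 had 0 counts of Rag1 and Rag2, and the highest levels among the lines of Irf4 (1039 CPM) and Batf (55.4 CPM), transcription factors of activated B cells, and of Ms4a1, which encodes CD20 (546 CPM).

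The lymphomas carried every switched member, and the isotype mix differed from that of line 524. The ASNase lymphoma had 72 switched counts and the vehicle lymphoma 958. In the ASNase lymphoma Igha made up 30.6% of these counts (Wilson 95% interval 21.1 to 42.0%), Ighg1 26.4% and Ighg2c 22.2% (14.2 to 33.1%). These intervals overlap, and per length Ighg2c led with 31.1%, before Ighg3 with 23.9% and Igha with 21.3%, so the counts give no order there. In the vehicle lymphoma Ighg2c made up 66.7% (63.7 to 69.6%), Ighg2b 15.3% and Igha 7.62%. Line 506 in culture had 0 counts of all 5, which allows up to 0.00414% of its heavy chain counts.

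**Figure D3:**
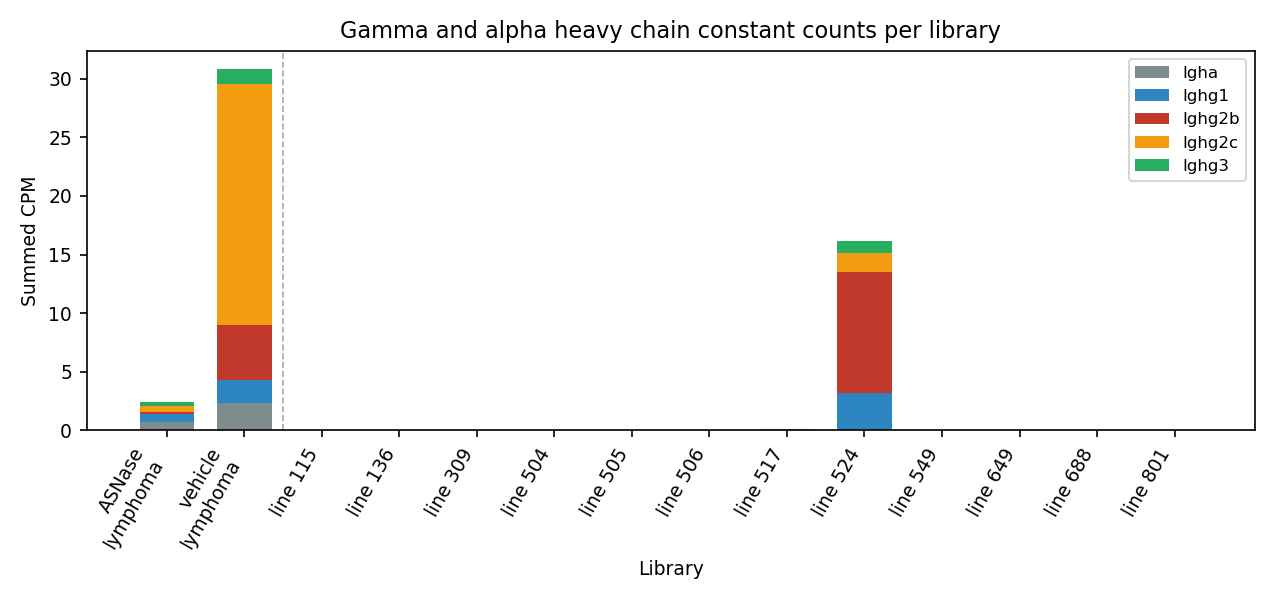
Summed CPM of Igha, Ighg1, Ighg2b, Ighg2c and Ighg3 (y axis, stacked by gene) in each library (x axis), with the lymphomas left of the dashed line. The bar of the vehicle lymphoma is mostly Ighg2c, that of line 524 mostly Ighg2b, and the other 11 lines have 0 to 3 counts each.

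The first comparison set the 2 lymphomas against the 12 lines for all genes, and asked which isotypes differ between tumours in the lymph node and cells in culture. edgeR's quasi-likelihood test with Benjamini-Hochberg adjustment called 24.5% of 17450 genes at a threshold of 0.05, with 13.4% of all tested genes called higher and 11.1% called lower. Of the 10 members, all of which passed the filter on low counts, 1 was called, which is Igha, higher in the lymphomas (adjusted p = 8.43e-06). Igha had at most 1 count in any line and passed that filter through the lymphomas alone. Both lymphomas lay above all 12 lines for Igha alone among the members, against 19.0% of all tested genes, and both lay below all lines for no member, against 12.5% of all tested genes. Both tumours grew from line 506 and all 11 residual degrees of freedom come from the lines, so the test treats each tumour as if it varied like an unrelated line. In bulk RNA, fewer cells of a type and less RNA per cell cannot be told apart.

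Igha, the alpha chain gene, had 22 counts (0.735 CPM) in the ASNase lymphoma and 73 counts (2.35 CPM) in the vehicle lymphoma, against 1 count over all 12 lines, in line 524. The ratio of its CPM to that pooled over the lines was 257.6 (exact 95% interval 41.6 to 10630) for the ASNase lymphoma and 824 (143 to 32990) for the vehicle lymphoma. The edgeR call was kept when either tumour was left out (adjusted p = 0.000198 without vehicle and 1.31e-05 without ASNase), and without lines 549 and 688 (adjusted p = 0.000142). DESeq2 gave Igha an adjusted p of 0.112 and did not call it. With at most 1 count in any line, Igha passed the filter on low counts through the lymphomas alone, so its edgeR call adds nothing to the counts themselves.

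The other switched members had no call by edgeR, whereas DESeq2 called Ighg2b (adjusted p = 0.000151), Ighg2c (0.000999) and Ighg3 (0.0101) higher. For each of them line 524 lay above at least 1 lymphoma. Their DESeq2 log2 fold changes, 5.54, 8.85 and 5.79, were far from the main edgeR values of 0.04, 4.59 and 2.70. They were nearer to the edgeR values without line 524, 5.31, 9.62 and 5.61. The weight of line 524 in the DESeq2 fit was not tested, so these calls are not a second support. Ighg2c, the gamma isotype gene of C57BL/6 mice that takes the place of Ighg2a in other strains, had 0.534 CPM in the ASNase lymphoma and 20.6 CPM in the vehicle lymphoma, against 1.61 CPM in line 524 and 0 counts in the other 11 lines (log2 fold change 4.59, SE 1.84, edgeR adjusted p = 0.0848). Ighg2b had 0.167 CPM in the ASNase lymphoma and 4.73 CPM in the vehicle lymphoma, against 10.3 CPM in line 524 and 6 counts over the other lines (log2 fold change 0.04, SE 4.07, edgeR adjusted p = 0.997). For Ighg1 the values were 0.635 and 1.90 CPM in the ASNase and vehicle lymphomas, against 3.16 CPM in line 524 and 0 counts in the others. For Ighg3 they were 0.334 and 1.29 CPM in the ASNase and vehicle lymphomas, against 1.08 CPM in line 524 and 3 counts over the others. So the vehicle lymphoma exceeded line 524 for Ighg2c and Ighg3, while line 524 exceeded both lymphomas for Ighg1 and Ighg2b. Without line 524 edgeR called all 5 switched members, but each of them then passed the filter through the lymphomas alone and had to differ.

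As a share of the heavy chain level per length, the 5 switched members made up 0.0752% in the ASNase lymphoma and 1.01% in the vehicle lymphoma, against 0.371% in line 524 and at most 0.00353% (line 517) in the other lines. The mean was 0.544% in the lymphomas and 0.0321 ± 0.107% in the lines (SD, n = 12), a difference of 0.512 percentage points (exact two-sided permutation test, 91 splits, p = 0.022, where the smallest possible is 0.011). Both tumours grew from the same line, but the test treats them as if they were unrelated lines. Its p-value therefore does not allow for their shared origin. The difference rests on the vehicle lymphoma. Without it the remaining difference was 0.043 points, and with it as the only tumour 0.981 points.

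Markers of other cells were compared in the same fit, which called 13.4% of all tested genes higher. Of 7 T cell markers tested, 5 were higher in the lymphomas by edgeR (Cd3e, Cd3d, Cd3g, Cd4 and Cd8a, of which DESeq2 called Cd4 and Cd8a), with a summed level over the whole list of 15.1 CPM in the ASNase lymphoma and 58.9 CPM in the vehicle lymphoma, against 0.656 to 39.6 CPM in the lines, where Cd3e and Cd4 were at 0 throughout. Of 6 macrophage markers, 5 were higher (C1qa, C1qb, C1qc, Cd68 and Csf1r), and the list summed to 427 CPM in the ASNase lymphoma and 198 CPM in the vehicle lymphoma, against 2.80 to 63.0 CPM in the lines, where C1qa and C1qb were at 0 throughout. Of 8 plasma cell markers, 7 were tested and 2 were higher (Jchain and Derl3), and the list summed to 533 CPM in the ASNase lymphoma and 632 CPM in the vehicle lymphoma, against 337 to 1278 CPM in the lines, with no marker at 0 in either lymphoma. Of the called genes, the 5 T cell markers and C1qa, C1qb and C1qc had at most 3 counts in any line. They passed the filter on low counts through the lymphomas alone, so their edgeR calls add nothing to the counts themselves. The part that host cells have in the alpha and gamma counts was not tested.

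Jchain, which joins IgM pentamers and IgA dimers and is made by antibody-secreting cells, had 0.835 CPM in the ASNase lymphoma and 5.99 CPM in the vehicle lymphoma, against 0.0346 ± 0.0364 CPM in the lines (SD, n = 12, edgeR adjusted p = 0.000184). Both lymphomas lay above every line, whose highest was 0.108 CPM. With at most 3 counts in any line, Jchain too passed the filter through the lymphomas alone, so its edgeR call adds nothing to the counts. Of 7 mature B cell markers, which include Ighd, none was called by edgeR and 2 by DESeq2, Ighd (adjusted p = 0.000275) and Fcer2a (0.00269), and the list summed to 617 CPM in the ASNase lymphoma and 943 CPM in the vehicle lymphoma, against 305 to 1087 CPM in the lines. None of 8 pan-B markers and none of 6 germinal centre markers was called by edgeR, and DESeq2 called 1 germinal centre marker, S1pr2 (adjusted p = 0.00719).

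Heavy chain V segments with any count numbered 30 in the ASNase lymphoma and 77 in the vehicle lymphoma, against 3 in line 506. Ighv5-17 made up 88.3% of the Ighv counts in the ASNase lymphoma and 82.5% in the vehicle lymphoma, against 88.2% in line 506. Segments with at least 10 counts numbered 2 in the ASNase lymphoma and 24 in the vehicle lymphoma, against 2 in line 506. For kappa, Igkv9-120 made up 91.6% in the ASNase lymphoma and 89.6% in the vehicle lymphoma, against 93.3% in line 506, and segments with at least 10 counts numbered 24 in the ASNase lymphoma and 41 in the vehicle lymphoma, against 20 in line 506. The lymphomas thus kept the leading segments of line 506, which lines 549 and 688 shared.

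Mu, delta and light chain genes gave no edgeR call in this comparison. Ighm had a log2 fold change of 0.34 (SE 0.37, edgeR adjusted p = 0.546) and Ighd of 2.08 (SE 0.82, adjusted p = 0.0792), while DESeq2 called Ighd with an adjusted p of 0.000275. Igkc had a log2 fold change of -0.16 (SE 1.15, adjusted p = 0.940), Iglc1 of -1.23 (SE 1.94, adjusted p = 0.700) and Iglc2 of -0.50 (SE 1.66, adjusted p = 0.865). All light chain members were near or at 0 in line 504. All 10 members together made up 0.498% of the counts in the ASNase lymphoma and 0.609% in the vehicle lymphoma, against 0.408 ± 0.124% in the lines (SD, n = 12), a difference of 0.146 points in the means (exact two-sided permutation test, p = 0.154). Without line 504 the difference was 0.116 points with p = 0.0385 in the same exact test. This test also treats the tumours as if they were unrelated lines.

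Against line 506 itself, 1 library each, the lymphomas had more delta transcript and less lambda 1 transcript. A gene was counted as different in size at a log2 ratio of at least 1 either way with 5 CPM or more in either library, with no test. This held for 3 of the 5 members at that level in the ASNase lymphoma (Ighd, Igkc and Iglc1) and 3 of 6 in the vehicle lymphoma (Ighd, Ighg2c and Iglc1), against 28.5% and 29.7% of all genes at that level for the ASNase and vehicle lymphomas. With total-count scaling it held for 2 in the ASNase lymphoma, Igkc being at 0.540 of its level in line 506, and for 4 in the vehicle lymphoma, where Ighg2b was added. Ighd was 9.24 times its level in line 506 in the ASNase lymphoma (exact 95% interval 8.09 to 10.6) and 24.3 times in the vehicle lymphoma (21.4 to 27.7). Iglc1 was at 0.135 of its level in line 506 in the ASNase lymphoma and 0.183 in the vehicle lymphoma, while Iglc2 was at 0.633 and 1.63 of it and Iglc3 at 0.610 and 1.05. The lambda genes therefore did not move by one common factor.

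Igkc was at 0.426 of its level in line 506 in the ASNase lymphoma and 0.709 in the vehicle lymphoma, and Ighm was 1.29 and 1.43 times its level in line 506. Ighg2c, at 0 counts in line 506, was higher by at least 5.25-fold in ASNase tumour RNA and by at least 202-fold in vehicle tumour RNA, with 3 counts per library as the floor. The exact 95% interval of these ratios starts lower, at 3.80 in the ASNase lymphoma and 164 in the vehicle lymphoma. For the other switched genes the ratio to that floor ran from 1.64 (Ighg2b) to 7.22 (Igha) in the ASNase lymphoma, and from 12.7 (Ighg3) to 46.5 (Ighg2b) in the vehicle lymphoma. For Ighg2b in the ASNase lymphoma, with 5 counts, the exact interval starts at 0.902, so a difference from line 506 was not detectable at this depth.

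Between the ASNase and the vehicle lymphoma, 1 library each and so without any replicate check, all 10 members were lower in the ASNase lymphoma. Over all genes at 5 CPM or more in either library the median log2 ratio was -0.05, and the share of genes lower was not counted. By the same size rule 3 of the 6 members at that level differed, Ighd, Ighg2c and Iglc2, all lower, against 4.69% of 10561 genes either way and 1.99% lower. Ighg2c was at 0.0260 of its vehicle level (exact 95% interval 0.0148 to 0.0425), Ighd at 0.381 (0.363 to 0.399) and Iglc2 at 0.389 (0.320 to 0.470). Ighg2b was at 0.0353 (0.0113 to 0.0842), under the 5 CPM limit, and Igha, Ighg1 and Ighg3 were at 0.313, 0.334 and 0.259. Igkc was at 0.600, Iglc1 at 0.736 and Ighm at 0.905 of the vehicle level. The T cell marker sum was lower in the ASNase lymphoma as well, and the macrophage sum was higher, and the part of cell mixture in these ratios was not tested.

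**Figure D4:**
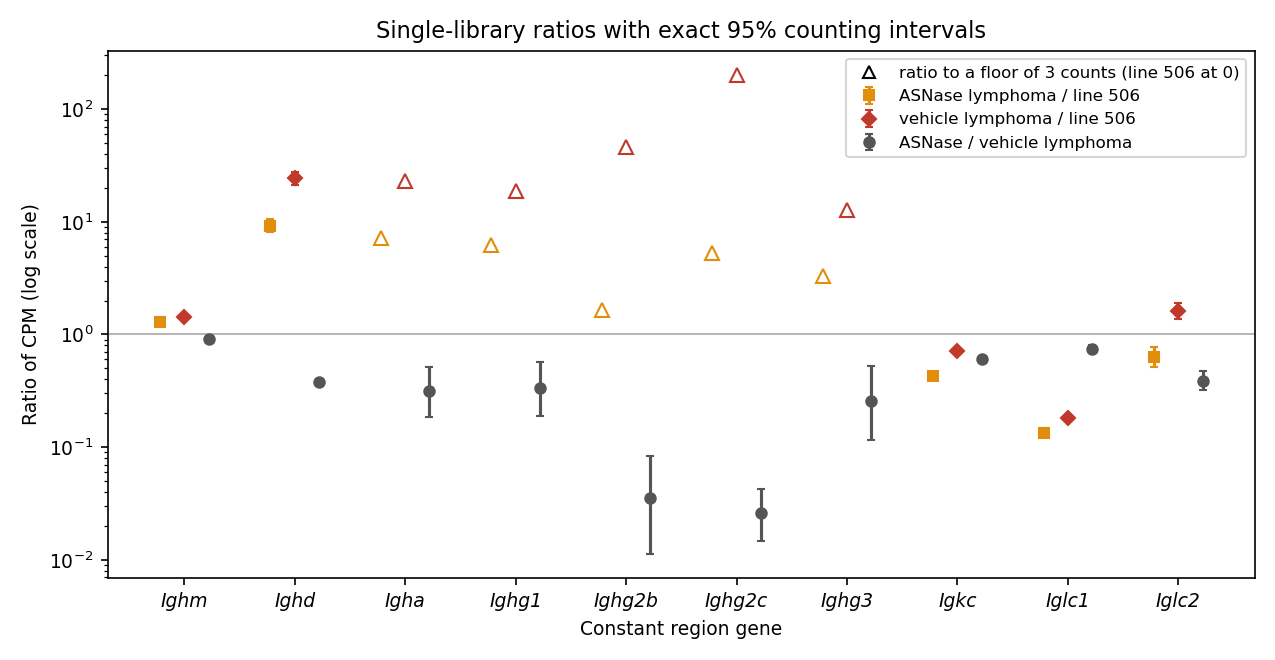
Ratio of CPM between single libraries (y axis, logarithmic) for each member (x axis), with exact 95% intervals for counting error. Squares compare the ASNase lymphoma with line 506, diamonds the vehicle lymphoma with line 506 and circles the ASNase with the vehicle lymphoma; open triangles are ratios to a floor of 3 counts where line 506 had 0, and all circles lie below 1.

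Genes that work with the constant regions were counted by list in the same edgeR fit, which called 24.5% of all tested genes. The receptor partners Cd79a and Cd79b, which carry the signal of surface immunoglobulin, were not called (0 of 2), Cd79a at 410 CPM in the ASNase lymphoma, 625 CPM in the vehicle lymphoma and 477 ± 193 CPM in the lines (SD, n = 12). Of 7 surrogate light chain and recombination genes, 1 was called by edgeR, Rag1, lower at 0.234 CPM in the ASNase lymphoma and 0.161 CPM in the vehicle lymphoma, against 6.52 CPM in line 506 and 49.8 ± 50.8 CPM over the lines (SD, n = 12, edgeR adjusted p = 0.0441). Rag1 was at 0 in line 524, so the lymphomas did not lie below every line, and the edgeR call was lost without lines 549 and 688 (adjusted p = 0.0611), with total-count scaling and with no filter (adjusted p = 0.0518 each) and with either tumour left out (adjusted p = 0.204 without vehicle and 0.185 without ASNase). DESeq2 called Rag2 (adjusted p = 0.000139) and Igll1 (0.0190) lower besides Rag1.

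Of 8 class switch genes, edgeR called 2 lower and none higher, against 11.1% lower and 13.4% higher of all tested genes. Ung, a uracil glycosylase of base excision repair, had 33.5 CPM in the ASNase lymphoma and 34.6 CPM in the vehicle lymphoma, against 65.6 ± 15.3 CPM in the lines (SD, n = 12, edgeR adjusted p = 0.0230). Apex1, an endonuclease of the same repair pathway, had 102 and 137 CPM in the ASNase and vehicle lymphomas, against 237 ± 35.5 CPM in the lines (adjusted p = 0.00199). For both genes the lymphomas lay below every line, which held for 12.5% of all tested genes. Ung had no call with total-count scaling (adjusted p = 0.0728) or with a single tumour in the fit (adjusted p = 0.111 without vehicle and 0.129 without ASNase), and Apex1 had none without the ASNase lymphoma (adjusted p = 0.0598).

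Of 7 tested secretory and plasma cell genes, the 2 called higher were Jchain and Derl3, against 13.4% of all tested genes called higher. Derl3, a factor of protein disposal from the endoplasmic reticulum, had 55.8 and 76.3 CPM in the ASNase and vehicle lymphomas. In the lines Derl3 averaged 5.67 ± 6.64 CPM (SD, n = 12, edgeR adjusted p = 0.0168). Of 11 transcription factors that act on immunoglobulin loci, 1 was called by edgeR, Spi1 (PU.1), lower at 33.6 and 45.2 CPM in the ASNase and vehicle lymphomas, against 80.5 ± 17.8 CPM in the lines (SD, n = 12, edgeR adjusted p = 0.0107). Derl3 lost its call with either tumour left out (adjusted p = 0.0890 without vehicle and 0.0528 without ASNase), and Spi1 without the ASNase lymphoma (adjusted p = 0.129). DESeq2 also called Sdc1 lower (adjusted p = 0.00849) among the secretory genes, and Ikzf1 lower (0.0482) and Pou2f2 higher (0.0407) among the transcription factors. The median log2 fold change was -7.18 for the surrogate light chain and recombination genes, against -0.01 over all tested genes. It was -6.29 with Vpreb2, at 0 in both lymphomas, set at a floor of 3 counts per library. For Vpreb1, Vpreb2, Igll1 and Dntt the line mean rested largely on line 504, and Vpreb3 went the other way (0.44). In line 506 Vpreb1, Igll1 and Dntt were at 0.713, 0.713 and 0.0339 CPM. They were at 0.869, 0.468 and 0 CPM in the ASNase lymphoma and 0.354, 0.193 and 0.193 CPM in the vehicle lymphoma. Rag1 and Rag2 were lower in both lymphomas than in line 506 (6.52 and 3.02 CPM). The median was 0.15 for the receptor partners, -0.73 for the class switch genes, 0.60 for the secretory genes and 0.11 for the transcription factors.

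Across the 12 lines, members were compared with each other and with 9723 other genes by Pearson's r of log2 CPM, as a description of libraries that share depth and, for 3 of them, leading V segments. Igkc and Iglc1 went together (r = 0.79, Spearman's rho 0.90), also without line 504 (r = 0.83, n = 11). Ighd and Iglc1 ran opposite (r = -0.64, and -0.80 without line 504). Ighm and Igkc had r = 0.86 over 12 lines but -0.15 without line 504, so that relation rests on 1 line. Ighm and Ighd had r = 0.26 over 12 lines and 0.75 without line 504.

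The genes most like each member were led by Ly86 for Ighm (r = 0.94), Sesn2 for Ighd (0.96), Zfp516 for Igkc (0.99), Itgb5 for Iglc1 (0.95) and Sik1 for Iglc2 (0.93). Leaving out the 2 lines farthest from the member's median left r = 0.64 for Ly86, 0.91 for Sesn2, 0.77 for Zfp516, 0.82 for Itgb5 and 0.67 for Sik1. The next genes were Bhlhe41, 5031414D18Rik, Sspn and Mina for Ighm, Gmcl1, Copg2, Nfu1 and Zxdc for Ighd, and Pdlim1, Lysmd2, Crybg3 and Spire1 for Igkc. For Iglc1 they were Snapc4, Dnmbp, Rabggtb and Pard6g, and for Iglc2 Kif1b, Fem1a, Rassf4 and Prkcd.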

How the data were processed

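Whole-number counts per gene, as deposited by the authors and not normalized, were used for all 14 libraries. Per the labels' protocols they come from a stranded mRNA kit and paired reads of 75 bases. The submitters' processing notes name STAR 2.4.0, featureCounts of Subread 1.5.0-p3 and mm10 (GRCm38). How the counting treated strand and reads with several matches is not given in the sources used here, so counts of near-identical gamma, lambda and V genes are uncertain, and counts per gene do not separate secreted, membrane and germline transcripts. Positions of genes and gene lengths are those of the table, and 60-base sequences came from GENCODE M21 transcripts on GRCm38.

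Columns were matched to samples by title, with 0 left over, and 100 spike-in and phage entries (5 to 534 counts per library) were left out. Genes were kept by filterByExpr, libraries were scaled by TMM, and edgeR 4.0.16 (limma 3.58.1, R 4.3.3) fitted the quasi-likelihood test to the 3 groups (lines, vehicle, ASNase), with Benjamini-Hochberg adjustment over all tested genes and a threshold of 0.05. The prior count for log2 CPM was 2. DESeq2 1.42.0, other scalings, other filters and left-out libraries were alternatives. Single libraries were compared by ratios with exact binomial intervals, and shares by exact permutation over libraries, in Python 3.11.15 with scipy 1.17.1, numpy 2.4.6 and pandas 2.3.3 (plots with matplotlib 3.10.9). The edgeR fit was tested on simulated counts. Lines are labelled as different mice, and p-values measure the spread between these libraries only.

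The members, gene lists and tests were chosen with earlier results of these data known. Named genes are the 10 members, other constant genes of the table, V segments, the called genes of each list or else its highest, and for members averaging at least 10 CPM over the lines the 5 genes most like them among those averaging at least 5 CPM. The genes named for lines 504 and 524, and the leave-outs of line 504, of line 524 in the edgeR fit, and of lines 549 and 688 together were chosen after their values were seen. A result that needs an item withheld for evaluation is not reported here.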

Additional observations from a re-analysis of the deposited data

How the results depend on the processing

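The class of every library held with raw counts, a limit of 50 CPM or further constant genes, and a limit of 1 CPM raised the lines with mu and kappa to 12, against 11. The count of members called was 1 under the other scalings and filters run, 4 with DESeq2 (Ighd, Ighg2b, Ighg2c and Ighg3, without Igha), and 1 to 5 when 1 library was left out, 5 without line 524, where all 5 switched members pass the low-count filter through the lymphomas alone, and 2 without the ASNase lymphoma. Counts of all genes called ran from 1816 (without the ASNase lymphoma) and 2012 (without the vehicle lymphoma) to 4881 (without line 524), against 4270, and were 3395 without lines 549 and 688. Total-count scaling moved the share of higher calls to 75.7%, against 54.8%, and the median log2 change to 0.21. The difference in constant region share was 0.116 points without line 504 and ran from 0.0902 to 0.201 points, and that in switched share from 0.043 to 0.981 points when 1 library was left out. Without a call, signs turned for Ighg2b (log2 fold change 0.04; -2.36 to 2.43 with 1 tumour left out, 5.31 without line 524, -0.09 without line 506, -0.08 without line 504, -0.22 without lines 549 and 688), Igkc (-0.16; -0.53 to 0.20 with 1 tumour left out, 0.08 by total counts) and Iglc2 (-0.50; -1.18 to 0.18 with 1 tumour left out, 0.59 by DESeq2, 0.56 without line 524), and the cause was not tested. By total counts 4 members differed in size between the ASNase and vehicle lymphomas, Ighg2b being added. With a limit of 1 CPM, 7 members differed in size between the ASNase and vehicle lymphomas and 7 between the vehicle lymphoma and line 506. The shares of all genes by total counts or at the 1 CPM limit were not computed, so these counts of members have no background. No paired analysis was possible because each treatment has 1 library and the groups share fewer than 2 replicate numbers. With 1 library per tumour, nothing here separates treatment from host.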
